A study of Mus musculus with 141 samples.

Results

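The genes described here are the mouse MHC class I heavy chains and the genes that load peptide onto them. They were chosen by name: every gene whose symbol begins with H2-K, H2-D1, H2-L, H2-Q, H2-T, H2-Bl or H2-M followed by a digit, together with B2m, Tap1, Tap2, Tapbp, Tapbpl, Psmb8, Psmb9, Psmb10, Nlrc5 and Erap1. This took 44 of the 24423 genes in the files. RNA-seq was performed on whole liver, lung and kidney from 1 adult male mouse, aged 8 to 12 weeks, of each of 47 Collaborative Cross (CC) strains, recombinant inbred lines whose genomes are mosaics of several founder strains. All mice ate the NTP 2000 diet and sat in chambers with clean air for 6 h on each weekday over 2 weeks, so no group received another treatment. With 1 mouse per strain, strain and mouse cannot be told apart, and because founder haplotypes were not among the labels, the strain stands in for them.

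MHC class I molecules display short peptides from inside the cell to CD8 T cells and natural killer cells. A heavy chain, encoded by the classical genes H2-K1, H2-D1 and H2-L or by the less polymorphic class Ib genes of the Q, T and M regions, pairs with the light chain beta-2-microglobulin (B2m). The immunoproteasome (Psmb8, Psmb9 and Psmb10) cuts proteins, Tap1 and Tap2 carry the peptides into the endoplasmic reticulum, Erap1 trims them, tapasin (Tapbp) and its relative Tapbpl edit what is loaded, and Nlrc5 switches on transcription of many of these genes. Interferon gamma raises the transcription of most of them.

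By role, the 44 genes held 3 classical heavy chains, 9 genes of the Q region, 8 of the T region, 12 of the M region, the class I pseudogene H2-K2, the light chain, 4 transport and loading genes, 3 immunoproteasome subunits, Erap1 and Nlrc5. The last was H2-Ke6, which the name pattern also takes although it encodes a hydroxysteroid dehydrogenase; it is counted but described apart. Coordinates in the NCBIM37 annotation were found for 39 of the 44, of which 34 lay on chromosome 17, where H2-K1 is at chr17:34132962-34137278 and H2-D1 at chr17:35399675-35404444. B2m lies on chromosome 2, Tapbpl on 6, Psmb10 and Nlrc5 on 8 and Erap1 on 13.

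The sequence before the transcription start is shown for 6 of these genes, because near-identical neighbours recur in the results. Each line gives 200 bases ending at the base before the start, read along the gene's own strand, from RefSeq on build GRCm38.p6. Capitals mark a match to a kappa B element, searched as GGGATTCCC, or to an interferon-stimulated response element core, searched as GAAANNGAAA, on either strand. The positions, in the order printed, are chr17:34000348-34000547, minus strand; chr17:35262894-35263093, plus strand; chr17:35469889-35470088, plus strand; chr17:36032702-36032901, minus strand; chr17:36111677-36111876, minus strand; and chr2:122147487-122147686, plus strand.
H2-K1: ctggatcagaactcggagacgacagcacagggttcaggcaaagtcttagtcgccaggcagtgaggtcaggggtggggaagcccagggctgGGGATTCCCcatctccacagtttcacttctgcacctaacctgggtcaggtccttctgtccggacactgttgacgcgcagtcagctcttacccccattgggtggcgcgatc
H2-D1: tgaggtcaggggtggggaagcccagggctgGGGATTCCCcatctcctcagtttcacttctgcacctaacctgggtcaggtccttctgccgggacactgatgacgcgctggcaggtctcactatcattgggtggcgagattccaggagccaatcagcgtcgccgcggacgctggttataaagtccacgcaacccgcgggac
H2-Q10: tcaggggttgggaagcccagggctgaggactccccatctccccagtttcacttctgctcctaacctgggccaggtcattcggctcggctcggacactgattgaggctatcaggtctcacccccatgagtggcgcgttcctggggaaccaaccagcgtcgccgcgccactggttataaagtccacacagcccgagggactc
H2-T23: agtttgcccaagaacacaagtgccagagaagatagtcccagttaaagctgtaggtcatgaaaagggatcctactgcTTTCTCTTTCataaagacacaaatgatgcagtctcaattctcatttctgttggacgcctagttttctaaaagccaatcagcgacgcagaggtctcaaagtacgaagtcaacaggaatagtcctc
H2-T-ps: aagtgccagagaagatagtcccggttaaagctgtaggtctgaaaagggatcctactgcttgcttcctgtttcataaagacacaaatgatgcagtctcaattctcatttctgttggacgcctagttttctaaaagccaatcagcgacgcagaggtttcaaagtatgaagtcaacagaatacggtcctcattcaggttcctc
B2m: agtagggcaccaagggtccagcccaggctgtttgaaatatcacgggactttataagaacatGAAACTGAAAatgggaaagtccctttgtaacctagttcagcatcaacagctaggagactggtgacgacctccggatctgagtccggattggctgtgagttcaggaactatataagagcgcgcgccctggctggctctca

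H2-K1 and H2-D1, the classical heavy chains, were 88% identical over 242 aligned columns of their promoter windows, which run from 250 bases before to 50 bases after the start. H2-D1 and H2-Q10, a class Ib gene whose product is secreted by liver, were 84.5% identical over 303 columns, and H2-T23, which encodes Qa-1, and its pseudogene neighbour H2-T-ps were 94.8% identical over 289. The kappa B letters were found in 0.353% of 32851 promoter windows of all genes, and among the 31 members with a window in those of H2-K1, H2-D1, H2-Q6 and H2-Q7. The response element core was found in 3.44% of all windows and in those of B2m, Erap1, H2-T22 and H2-T23. A match to these letters is a description of the reference sequence only.

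Because only uniquely aligned reads of 50 bases were counted, likeness between members bears on how many reads each could receive. Windows of 50 bases were taken from each gene's longest annotated transcript in the reference strain. The share occurring at most once in the genome, and in no transcript of another locus, was 90.1% for H2-K1, 84.9% for H2-D1 and 72.6% for H2-Q10. It was 70.4% for H2-Q4, 65.3% for H2-T23, 60.3% for H2-T22 and 34.9% for H2-Q7, against 100% for B2m. The level of a heavy chain with a low share is therefore uncertain, and how the share differs between strains was not tested, since strain sequences were not used here. Tap1, Tapbp, H2-Q7 and H2-T10 have several transcripts in the files, and such genes held few counts in these files: the median over genes of the median count was 1 for the 6112 genes with several transcripts and 6 for the 18311 with 1 transcript. The levels of Tap1 and Tapbp are therefore not set against those of other genes. Whether they lost reads, and to the same degree in each library, was not tested. Tap1 and Psmb9 also overlap at their ends on opposite strands.

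The libraries held between 1738046 and 42158454 counts, with medians of 10423382 in liver, 9338124 in lung and 8245850 in kidney. Each tissue was far above the others in its own marker list: the 4 hepatocyte genes summed to a median of 89279 TPM (transcript abundance corrected for gene length and library size) in liver, the 4 lung epithelium genes to 81021 in lung and the 4 kidney tubule genes to 90210 in kidney. The 5 leukocyte genes (Ptprc, Cd53, Laptm5, Coro1a and Cd52) summed to a median of 19.3 TPM in liver, 338 in lung and 24.96 in kidney. Some mice stood apart in the genes described here. CC016 was highest of the 47 strains for 13 of 22 members in liver, 13 of 26 in lung and 15 of 21 in kidney, counting members above 1 TPM in over 50% of libraries and ranking TMM-normalised TPM, and its leukocyte sum ranked 1 in liver (191 TPM), 17 in lung (393) and 4 in kidney (65.2). Its kidney had the lowest sum of kidney tubule genes (28691 TPM). CC040 was highest for 5 of 26 members in lung, with the highest leukocyte sum there (680 TPM), and CC015 was lowest for 7 of 26 in lung, with the lowest leukocyte sum in lung (36.0) and kidney (9.21). The marker sums are on deposited TPM, on which CC016 was highest for 6, 8 and 15 members in liver, lung and kidney, CC040 for 9 in lung, and CC015 lowest for 16 in lung. The lung of CC015 was also lowest in the lists of lung epithelium (18616 TPM), endothelium (192 against a median of 869), macrophages, T cells, B cells, NK cells and dendritic cells. The part of leukocytes in any result was not tested beyond the values given beside it, and in whole tissue fewer cells of a type and less RNA per cell cannot be told apart.

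Some libraries did not go with their strain label. Over genes other than the members whose pattern across strains had r above 0.6 between a pair of tissues (117 to 197 genes), tissues of the same strain correlated at medians of 0.71 for liver with lung, 0.69 for liver with kidney and 0.69 for lung with kidney. The genes were picked from these same libraries for that likeness, so the high medians follow in part from the choice. The lung labelled CC042 gave 0.17 with the liver and 0.11 with the kidney of that label. The liver labelled CC032 gave 0.22 with its lung and 0.19 with its kidney, against 0.61 with the kidney of CC012, and the liver labelled CC030 gave 0.25 and 0.33. Every other pair of tissues of a strain was at 0.4 or above. What these libraries hold was not tested, and results that pair tissues are given with and without these 3 strains, a choice made after seeing the data.

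Members were not equally expressed. H2-L, H2-M10.1, H2-M10.3, H2-M10.4, H2-Q6, H2-Q8 and H2-Q9 reached more than 3 counts in no library, and 8 others (H2-M1, H2-M10.2, H2-M10.5, H2-M10.6, H2-M11, H2-M9, H2-T9 and H2-T10) did so in 1 to 14 libraries. The M10 family is best known from the vomeronasal organ. The filter for the comparison of tissues, above 1 CPM in at least 30% of libraries, was passed by 25 members, and 19 were not tested.

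B2m was the most abundant member in TPM. It ranged from 865 through a median of 3122 to 5218 TPM over the 47 livers, from 668 through 2289 to 7982 in lung, and from 284 through 687 to 6162 in kidney. H2-K1 had 117, 488 and 1838 TPM as its lowest, median and highest liver, 80.0, 599 and 3797 in lung, and 50.5, 133 and 1448 in kidney. H2-D1 had 38.5, 147 and 359 TPM in liver, 23.8, 487 and 1404 in lung, and 16.4, 84.3 and 203 in kidney. Kidney thus had the lowest median of all 3 genes, while the ranges of the tissues overlapped for each. The highest kidney of B2m, H2-K1 and H2-D1 was that of CC016. These are deposited TPM, as are the ranges of the genes that follow. The lowest liver of all 3 genes was that of CC033 and the lowest lung that of CC015. After TMM normalisation B2m had 2585 TPM in that liver and 2635 in that lung, so these low ends depend on the scaling.

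**Figure D1:**
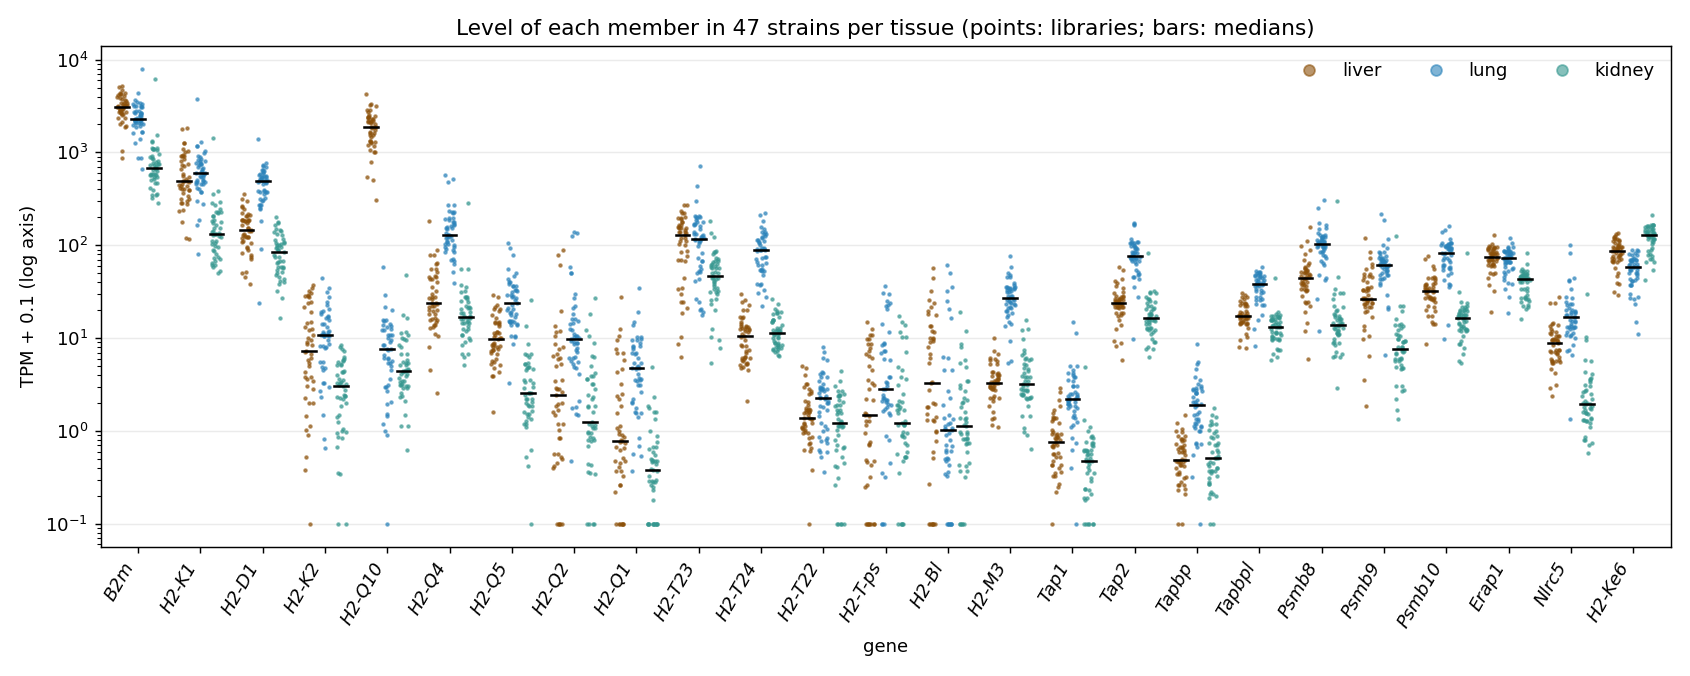
Deposited TPM plus 0.1 (log axis) of the 25 members tested between tissues, 1 point per library (47 strains per tissue), coloured by tissue, with black bars at the medians. H2-Q10 stands at a median of 1901 TPM in liver and below 10 in lung and kidney, and most other members have their lowest median in kidney.

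Of the class Ib genes, H2-Q10 had 306, 1901 and 4209 TPM in liver against 0, 7.46 and 57.8 in lung and 0.52, 4.31 and 47.2 in kidney, so that the lowest liver was above every lung and kidney. H2-T24, a T region gene, had 2.02, 10.5 and 29.5 TPM in liver, 22.02, 88.1 and 222 in lung, and 6.33, 11.3 and 26.5 in kidney. H2-M3, which presents N-formyl peptides, had 1.01, 3.17 and 10.01 TPM in liver, 5.30, 26.7 and 76.7 in lung, and 0.54, 3.13 and 15.6 in kidney. Lung was the highest tissue of these last genes, and in every one of the 47 mice its TPM was above that of the liver. H2-T23 had 6.14, 130 and 272 TPM in liver, 17.5, 116 and 710 in lung, and 5.30, 47.0 and 184 in kidney.

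Among the loading genes, Psmb8, an immunoproteasome subunit, had 5.90, 44.5 and 158 TPM in liver, 11.9, 103 and 307 in lung, and 2.83, 13.7 and 298 in kidney. Its partner Psmb9 had 1.76, 26.5 and 121 TPM in liver, 6.56, 61.8 and 216 in lung, and 1.23, 7.63 and 124 in kidney. Nlrc5, the class I transactivator, had 2.26, 8.76 and 27.6 TPM in liver, 1.24, 16.8 and 99.5 in lung, and 0.48, 1.83 and 30.1 in kidney. These 3 genes shared the order lung, liver, kidney in their medians of TPM, although the ranges overlapped. On the TMM scale used for the test below, liver was above lung by 0.36 (Nlrc5), 0.26 (Psmb8) and 0.41 (Psmb9) on the log2 scale, in 38, 31 and 33 of 47 mice, below the fold limit for a call, so the order of liver and lung turned with the scaling. Tap1 had 0, 0.67 and 2.78 TPM in liver, 0, 2.13 and 14.7 in lung, and 0, 0.38 and 4.82 in kidney, and Tapbp 0, 0.39 and 1.37 in liver, 0, 1.82 and 8.52 in lung, and 0, 0.41 and 1.68 in kidney. Both were thus close to their counting limit in many libraries.

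Tissue differences were tested by limma with voom weights on TMM-scaled counts, with the strain as a block, and calls needed an adjusted p (q) of at most 0.1 with a log2 fold change no smaller than 1 in size. Against kidney, liver was higher for 20 of 25 members and lower for 0, where 36.4% of the 12127 genes tested were called in either direction, 15.6% higher in liver and 20.8% higher in kidney. With total-count scaling, log2(TPM + 1) and log2(TPM + 0.1) it was 11, 10 and 11 members, all higher in liver. By deposited TPM, kidney was above liver for H2-Ke6 in 42 of 47 mice, for H2-T24 in 31, for H2-M3 in 26 and for H2-T-ps in 25. Liver was above kidney in 5, 16, 21 and 19 mice in that order. On the TMM scale no member was lower in liver than in kidney at an unadjusted p under 0.05, and edgeR and DESeq2 gave 0 too. The median log2 fold change was 1.86 over the members and −0.0034 over all genes. Called were both classical heavy chains, H2-K2, all 5 tested Q genes, 3 of 5 T genes, B2m, 3 of 4 transport and loading genes, all 3 immunoproteasome subunits, Erap1 and Nlrc5. The log2 fold change was 9.44 ± 0.13 (SE, n = 47 pairs) for H2-Q10, 3.05 ± 0.09 for B2m, 2.85 ± 0.10 for H2-K1, 1.78 ± 0.06 for H2-D1 and 2.77 ± 0.09 for Nlrc5, each higher in liver in 47 of 47 mice on the TMM scale. By deposited TPM, liver was above kidney in 47 mice for H2-Q10, 46 for B2m and H2-K1, 45 for Nlrc5 and 39 for H2-D1. Kidney was above liver in 0, 1, 1, 2 and 8 mice in that order. The 5 not called were H2-M3, H2-T24, H2-T-ps, Tapbp and H2-Ke6, at 0.43 to 0.98.

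Against kidney, lung was higher for 17 members and lower for 1, H2-Ke6, where 46.1% of all genes were called, 25.5% higher in lung and 20.6% higher in kidney. H2-Q1, a Q region gene, differed by 2.67 ± 0.22 on the log2 scale (SE, n = 47 pairs), H2-Q5 by 2.53 ± 0.10 and H2-Q4 by 2.45 ± 0.11, each higher in lung in 47 of 47 mice. For H2-Q1, 34 of 47 kidneys had at most 3 counts (median 1 count), so its fold rests on a group mostly at the floor of counting. Nlrc5 was higher by 2.41 ± 0.09, Psmb9 by 2.27 ± 0.10, Psmb8 by 2.12 ± 0.09, Tap1 by 1.95 ± 0.13, H2-D1 by 1.89 ± 0.06 and Tapbp by 1.37 ± 0.20. H2-Q10, the liver heavy chain, gave −0.04 ± 0.13, with a 95% interval from −0.28 to 0.21. H2-Bl, H2-T22, H2-T23, H2-T-ps, Erap1 and Tapbpl, at 0.23 to 0.93, were also not called.

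Between liver and lung the result depended on the scaling. On the TMM scale 10 of 25 members were called, where 55.0% of all genes were: 8 higher in liver, where 23.9% of all genes were, and 2 higher in lung, where 31.0% were. H2-Q10 was higher in liver by 9.48 ± 0.12 on the log2 scale (SE, n = 47 pairs), H2-Bl by 2.30 ± 0.40, H2-Ke6 by 2.14 ± 0.04, B2m by 1.87 ± 0.09, Erap1 by 1.58 ± 0.04, H2-T23 by 1.36 ± 0.09, H2-K1 by 1.30 ± 0.10 and H2-K2 by 1.12 ± 0.18. For H2-Bl, 27 of 47 lungs had at most 3 counts (median 3), and its deposited TPM was higher in liver in 30 mice and in lung in 16. H2-T24 was higher in lung by 1.57 ± 0.08 as the size of its log2 change, and H2-M3 by 1.55 ± 0.06. H2-D1, in contrast to H2-K1, gave −0.11 ± 0.06 (q = 0.085, limma with Benjamini-Hochberg adjustment). With scaling to total counts the median log2 fold change of all genes shifted by −1.37, and 2 members were then called higher in liver and 13 in lung. H2-K1 then stood at −0.075, so its direction between liver and lung turned with the scaling, as it did for H2-K2; H2-T23 turned only with log2 TPM. The signs of H2-Q10, H2-T24 and H2-M3 did not turn under the alternatives run. The highest lung of H2-Q10, at 57.8 TPM, was that of CC010, which also had the highest hepatocyte sum of the lungs (1899 against a median of 165 TPM). The part of hepatocyte RNA in that value was not tested. Without CC030, CC032 and CC042, 10, 20 and 18 members were called for liver with lung, liver with kidney and lung with kidney, the counts of the full set.

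**Figure D2:**
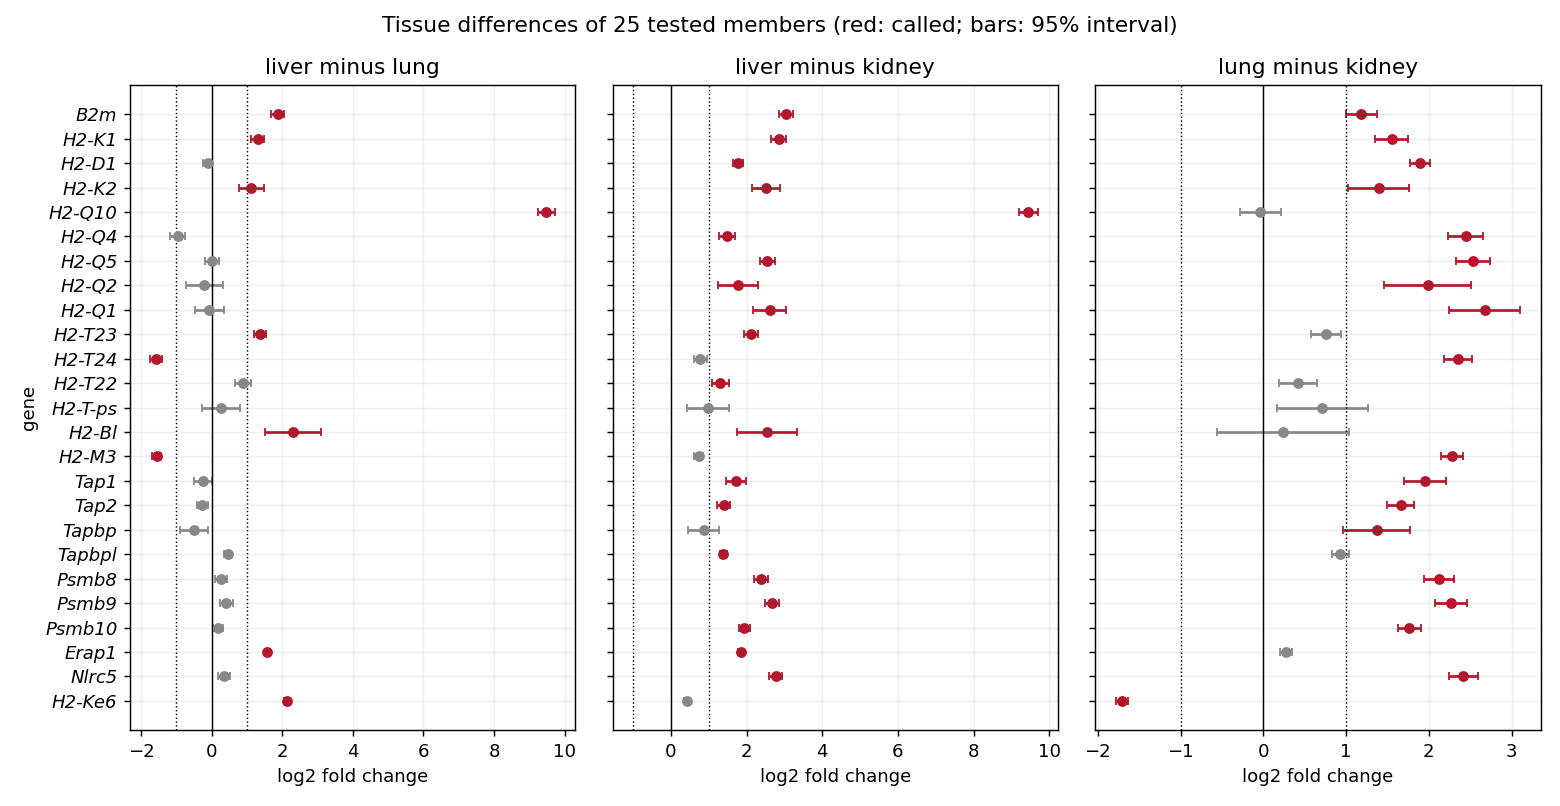
Log2 fold change (limma-voom on TMM-scaled counts) of the 25 tested members for each pair of tissues; points are estimates, bars 95% intervals, red points called, grey points not called, dotted lines the fold limit. All 25 estimates lie above 0 for liver minus kidney and 23 for lung minus kidney, whereas those for liver minus lung fall on both sides of 0.

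Side by side on the TMM scale, 14 members were called lower in kidney than in both other tissues, where 6.64% of 12127 genes were. With total-count scaling, log2(TPM + 1) and log2(TPM + 0.1), 11, 10 and 11 members were called lower in kidney than in liver. The count of 14 thus depends on the scaling. On the TMM scale 7 were called higher in liver than in both (B2m, H2-K1, H2-K2, H2-Q10, H2-T23, H2-Bl and Erap1), where 9.87% of all genes were. Of these, H2-K1, H2-K2 and H2-T23 turned sign between liver and lung under other scalings. By deposited TPM, Erap1 was higher in liver in 23 mice and in lung in 24, and B2m in 34 and 13. With total-count scaling, log2(TPM + 1) and log2(TPM + 0.1), 2, 1 and 2 members were called higher in liver than in lung. H2-Bl had at most 3 counts in 27 lungs and 22 kidneys of the 47. H2-T24 and H2-M3 were called higher in lung than in both, where 19.5% of all genes were. These comparisons share libraries. The median leukocyte sums of liver, lung and kidney were 19.3, 338 and 24.96 TPM, and their part in these differences was not tested. The hepatocyte markers summed to medians of 165 TPM in lung and 3593 in kidney, and H2-Q10 had medians of 7.46 and 4.31 there.

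Other genes of the pathway, such as chaperones, constitutive proteasome subunits and interferon signalling genes, were taken as a list of 32, of which 24 passed the filter. Calls were split 5 to 0 in favour of liver over kidney, where 15.6% of all genes were called higher in liver and 20.8% in kidney. The split was 5 to 6 for lung against kidney, where 25.5% and 20.6% of all genes were called. It was 9 to 2 for liver against lung, where 23.9% and 31.0% were. These splits and the values that follow are on the TMM scale. Total-count scaling shifted the median log2 fold change of all genes by −1.37 for liver against lung, and its effect on this list is not given here. Irf1, an interferon-induced transcription factor, was higher in lung than in kidney by 2.37 ± 0.13 on the log2 scale (SE, n = 47 pairs), and Irf2 was higher in liver than in kidney by 2.0 ± 0.08. Psme1, a subunit of the proteasome activator PA28, was higher in liver than in kidney by 1.55 ± 0.05, as was Nfyb, a subunit of the CCAAT-binding factor NF-Y, by 1.54 ± 0.05. Lap3, a cytosolic leucine aminopeptidase, was higher in liver than in lung by 3.79 ± 0.06 and the chaperone Calr by 2.04 ± 0.04. Psmb5, the constitutive subunit that Psmb8 replaces, gave −1.92 ± 0.05 for lung minus kidney, opposite in sign to Psmb8.

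Whether the level of a member in 1 tissue of a mouse went with its level in another was tested over the 47 strains. TMM-normalised TPM was turned into rank-based normal scores, Pearson's r was tested with 100000 permutations, and p was adjusted over 27057 tests of all genes and tissue pairs. A pattern was called shared at q of at most 0.1 with r above 0. Of 21 members tested in all 3 pairs, 16 were called between liver and lung, where 14.8% of all genes were, 14 between liver and kidney, where 21.2% were, and 17 between lung and kidney, where 17.2% were. The median r was 0.51, 0.47 and 0.56 over the members in that order, and 0.14, 0.18 and 0.15 over all genes. In all 3 pairs together 12 members were called, where 6.02% of 8285 genes were. Members that lie close together on chromosome 17 can be inherited together, so they are not separate observations. With TPM not scaled by TMM, 4 were called between liver and lung, and after regression on the leukocyte list 11 between lung and kidney. Without CC030, CC032 and CC042 the counts were 15, 14 and 16, without CC016 they were 13, 13 and 14, and without CC015, CC016, CC029, CC033 and CC040 they were 12, 12 and 14. The share of all genes called without these strains is not given here.

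**Figure D3:**
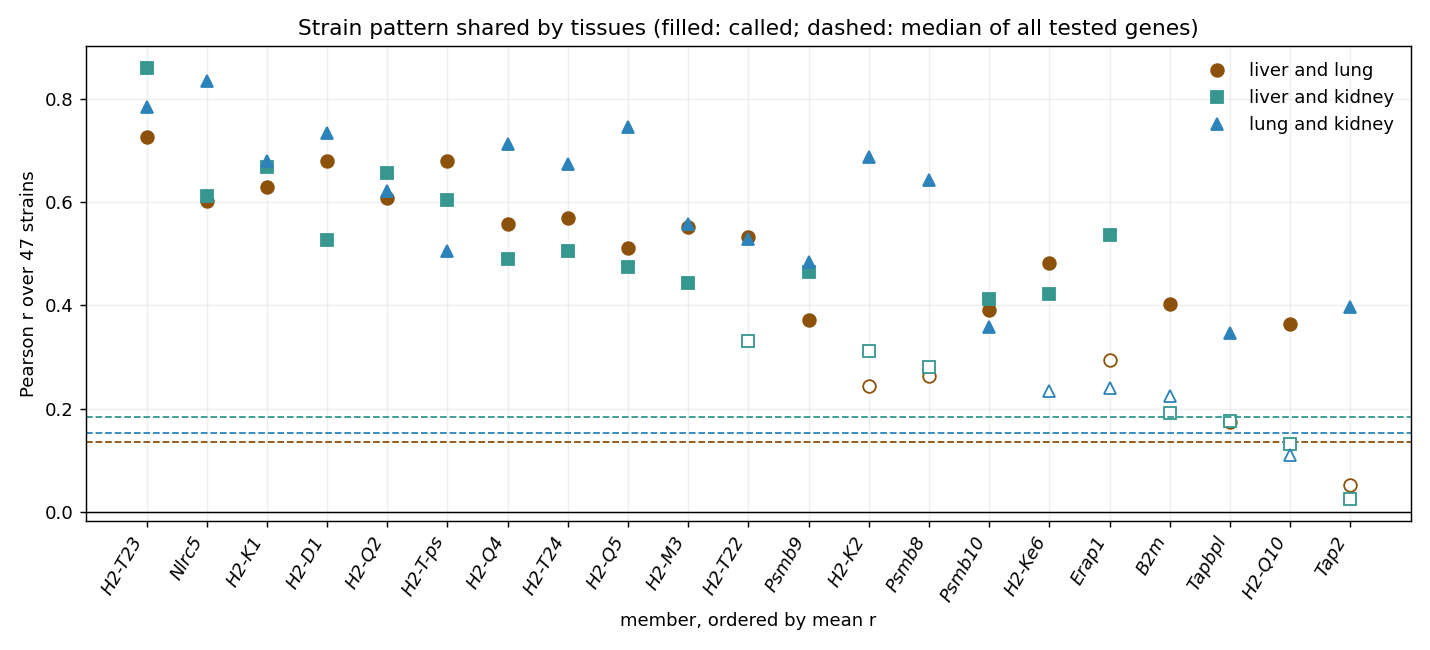
Pearson r over 47 strains between each pair of tissues for the 21 members tested in all 3, ordered by mean r; filled symbols were called and dashed lines are the medians of all tested genes. H2-T23 has the highest mean r, 0.79, and Tap2 the lowest, 0.16.

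H2-T23 had the highest mean r over the pairs, 0.79. It was 0.73 between liver and lung, 0.86 between liver and kidney and 0.78 between lung and kidney (n = 47 strains, Spearman's rho 0.72, 0.85 and 0.76, permutation p = 1e-05 each, the smallest that these permutations can give, q = 0.00054). When the 2 strains farthest from the median in the first tissue of each pair were left out, r was 0.69, 0.83 and 0.82. Extremes of the second tissue had no part in that choice, which was made in the same way for Nlrc5, H2-K1, H2-D1 and H2-Q2. The 5 lowest strains of each tissue shared 4, namely CC003, CC006, CC033 and CC059, and the 5 highest shared CC016 and CC037. In liver, lung and kidney, TMM-normalised TPM was 18.9, 14.96 and 8.96 in CC003, 8.24, 17.6 and 9.60 in CC006, 18.3, 20.1 and 9.01 in CC033, and 13.3, 32.5 and 13.4 in CC059. CC037 had 210, 260 and 119 and CC016 had 272, 509 and 239. In CC042, whose lung went against its label, H2-T23 had 152 in liver, 13.9 in lung, the lowest of all lungs, and 40.1 in kidney. Without CC030, CC032 and CC042 r was 0.79, 0.87 and 0.81.

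Nlrc5 followed, with r of 0.60, 0.61 and 0.83 for liver with lung, liver with kidney and lung with kidney (n = 47 strains, rho 0.53, 0.56 and 0.82, permutation q at most 0.00087). Without the 2 farthest strains r was 0.49, 0.51 and 0.79. CC016, CC024 and CC068 were among its 5 highest strains in each tissue and CC015 among its 5 lowest. TMM-normalised TPM in liver, lung and kidney was 32.4, 116 and 39.1 in CC016, 20.1, 47.7 and 6.21 in CC024, 17.4, 49.5 and 7.84 in CC068, and 2.61, 4.89 and 0.61 in CC015. With the summed leukocyte list regressed out, r between liver and kidney was 0.33 and no longer called, and that between lung and kidney was 0.73.

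The classical heavy chains came next. H2-K1 gave r of 0.63, 0.67 and 0.68 in the same order of pairs (n = 47 strains, rho 0.65, 0.73 and 0.71, permutation q = 0.00054 each), and 0.60, 0.65 and 0.80 without the 2 farthest strains. H2-D1 gave 0.68, 0.53 and 0.73 (rho 0.68, 0.48 and 0.70, permutation q at most 0.0028), and 0.68, 0.52 and 0.72 without them. CC068 was among the 5 highest strains of both genes in each tissue, CC003 among the 5 lowest of H2-K1, and CC015, CC035 and CC053 among the 5 lowest of H2-D1. In CC035, H2-D1 had a TMM-normalised TPM of 51.9 in liver, 200 in lung and 28.5 in kidney, against 228, 649 and 135 in CC068. H2-K1 in CC016 was 1022, 1505 and 1878, so that its kidney was above its liver and lung.

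H2-Q2, a Q region gene, had the fifth highest mean r, with 0.61, 0.66 and 0.62 (n = 47 strains, rho 0.58, 0.57 and 0.56, permutation q at most 0.0014) and 0.55, 0.59 and 0.56 without the 2 farthest strains. Its deposited TPM ranged from 0 through 2.33 to 88.1 in liver, from 0.37 through 9.71 to 137 in lung and from 0 through 1.14 to 26.9 in kidney. CC021, CC039 and CC062 were among its 5 highest strains in each tissue. TMM-normalised TPM in liver, lung and kidney was 64.9, 107 and 21.1 in CC021, 64.4, 98.5 and 25.8 in CC039, and 20.8, 56.1 and 7.56 in CC062, while CC033 was among the 5 lowest. At 12 livers and 19 kidneys with at most 3 counts, the lower end of its range was not resolved.

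**Figure D4:**
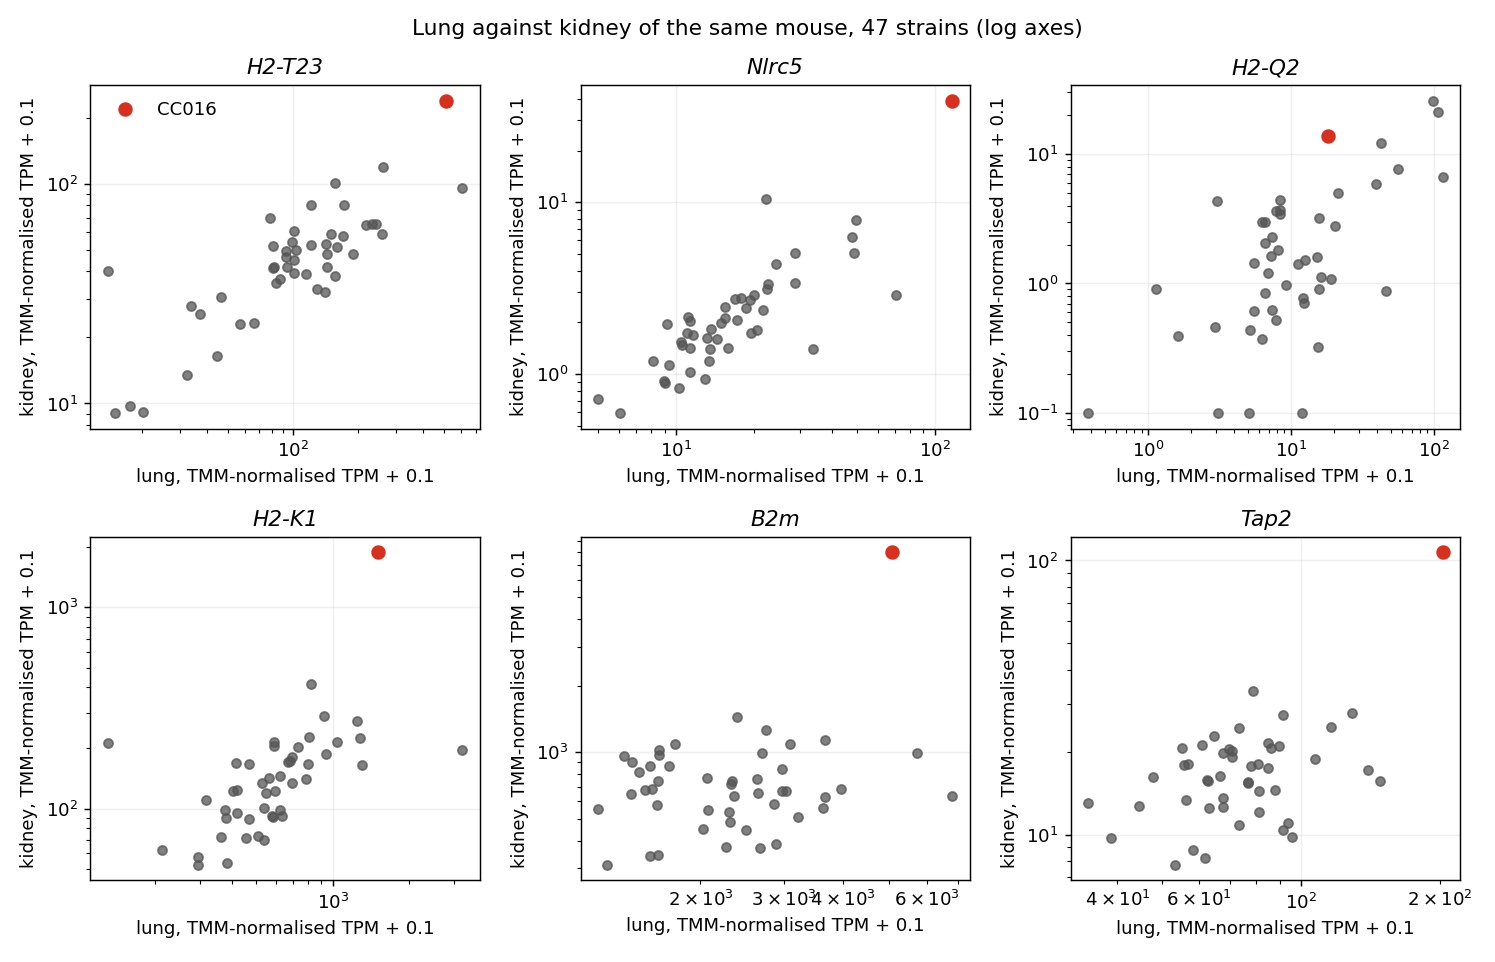
TMM-normalised TPM plus 0.1 in kidney against lung of the same mouse for 6 members on log axes, 1 point per strain (n = 47), with CC016 in red. H2-T23, Nlrc5, H2-Q2 and H2-K1 rise along a diagonal, while B2m (r = 0.22) and Tap2 (r = 0.40) scatter more widely and CC016 is high in each panel.

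The weakest shared patterns were those of Tapbpl, H2-Q10 and Tap2. Tap2, a chain of the peptide transporter, gave 0.05 between liver and lung, 0.03 between liver and kidney and 0.40 between lung and kidney, of which only the last was called (n = 47 strains, rho 0.32, permutation q = 0.048). H2-Q10 gave 0.36, 0.13 and 0.11 with the first called (rho 0.37, permutation q = 0.076), and Tapbpl 0.17, 0.18 and 0.35 with the last called (rho 0.34, permutation q = 0.097). B2m was called between liver and lung only, at 0.40 (rho 0.38, permutation q = 0.043), with 0.19 and 0.22 in the other pairs. Differences between members in r were not tested. Of the other pathway genes, 5 of 20 were called between liver and kidney (21.2% of all genes) and 5 of 20 between lung and kidney (17.2%). Between liver and lung 0 of 20 were called, where 14.8% of all genes were, with 1 at an unadjusted permutation p under 0.05.

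The ratio of H2-D1 to H2-K1 within a library does not depend on how the library was scaled. Its log2 value, with 1 TPM added to each, had a median of −2.11 in liver, −0.56 in lung and −0.88 in kidney. H2-D1 was above H2-K1 in 1 liver, 12 lungs and 9 kidneys of the 47. Over strains the ratio in 1 tissue went with that in the others, with r of 0.60, 0.74 and 0.74 in the liver-lung, liver-kidney and lung-kidney pairs (n = 47 strains, rho 0.66, 0.75 and 0.79, permutation p and q = 1e-05 each). Without the 2 farthest strains r was 0.53, 0.71 and 0.87, and without CC015, CC016, CC029, CC033 and CC040 it was 0.58, 0.79 and 0.73. In CC042 the liver stood at −2.81, the kidney at −1.31 and the lung, which went against its label, at 1.56 on this log2 scale, and leaving out CC030, CC032 and CC042 gave r of 0.78, 0.74 and 0.88. How well reads of each H2-D1 or H2-K1 allele aligned in each strain was not tested.

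A few members were near 0 in every tissue of some mice and clearly counted in others. H2-T-ps had at most 3 counts in all 3 tissues of 6 strains (CC012, CC015, CC016, CC035, CC053 and CC055) and more than 30 in at least 1 tissue of 13. Its counts in liver, lung and kidney were 0, 0 and 0 in CC015, 0, 1 and 2 in CC016, 58, 98 and 53 in CC013, and 108, 91 and 113 in CC046. In CC042 they were 20, 285 and 2, the lung being the library that went against its label. H2-M2, an M region gene, had at most 3 counts throughout CC003, CC025, CC036, CC045 and CC062 and more than 30 in at least 1 tissue of CC011, CC013, CC016, CC030 and CC040. Its highest liver was that of CC016 and its highest lung that of CC040, the libraries with the highest leukocyte sums of those tissues. These counts are not scaled to depth, and CC035 for H2-T-ps and CC036 and CC045 for H2-M2 are among the 11 strains with a shallow library, which held 3836346 counts in the kidney of CC035, 1738046 in the liver of CC036 and 2829104 in the lung of CC045.

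Pairs of members were also compared across strains within a tissue. Of these pairs of members, 85 of 231 in liver, 164 of 325 in lung and 100 of 210 in kidney had a positive r at q of at most 0.1, adjusted over 766 pairs, and 10, 4 and 4 a negative one. The smallest r of such a positive pair was reached in liver by 5.90% of all pairs of genes, in lung by 8.22% and in kidney by 6.98%. Without CC016 the positive pairs were 60, 142 and 78, and without CC015, CC016, CC029, CC033 and CC040 they were 48, 108 and 66. Of 210 pairs tested in all 3 tissues, 52 were positive and 1 was negative throughout, with 32 and 1 without CC016 and 22 and 1 without the 5 strains. Most members lie close together on chromosome 17 and can be inherited together, so their pairs are not separate observations. Psmb8 and Psmb9, neighbours on chromosome 17, gave 0.71 in liver, 0.70 in lung and 0.76 in kidney (n = 47 strains, rho 0.67, 0.65 and 0.74, permutation p = 1e-05, q = 0.00014 each), and 0.66, 0.62 and 0.71 leaving out the 2 strains most extreme in Psmb8. H2-K1 and H2-T23 gave 0.61, 0.66 and 0.53 (rho 0.57, 0.57 and 0.53, permutation q at most 0.00087), and 0.52, 0.58 and 0.46 without the 2 farthest.

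The pair that was negative in each tissue was H2-T-ps with H2-T23, whose promoter windows shown above are nearly alike. In the order liver, lung and kidney it gave r of −0.46, −0.44 and −0.38 (n = 47 strains, rho −0.46, −0.43 and −0.39, permutation q = 0.0057, 0.0076 and 0.028), and −0.39, −0.39 and −0.33 leaving out the 2 strains most extreme in H2-T-ps. H2-T-ps was counted in CC006, with 30, 202 and 51 counts in liver, lung and kidney, and in CC059, with 32, 54 and 16, and these were mice with low H2-T23. In CC016 it was the other way round, with 853, 2045 and 883 counts of H2-T23. Reads from such like genes can be assigned to either, so how much of this pattern lies in transcription and how much in read assignment was not tested.

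**Figure D5:**
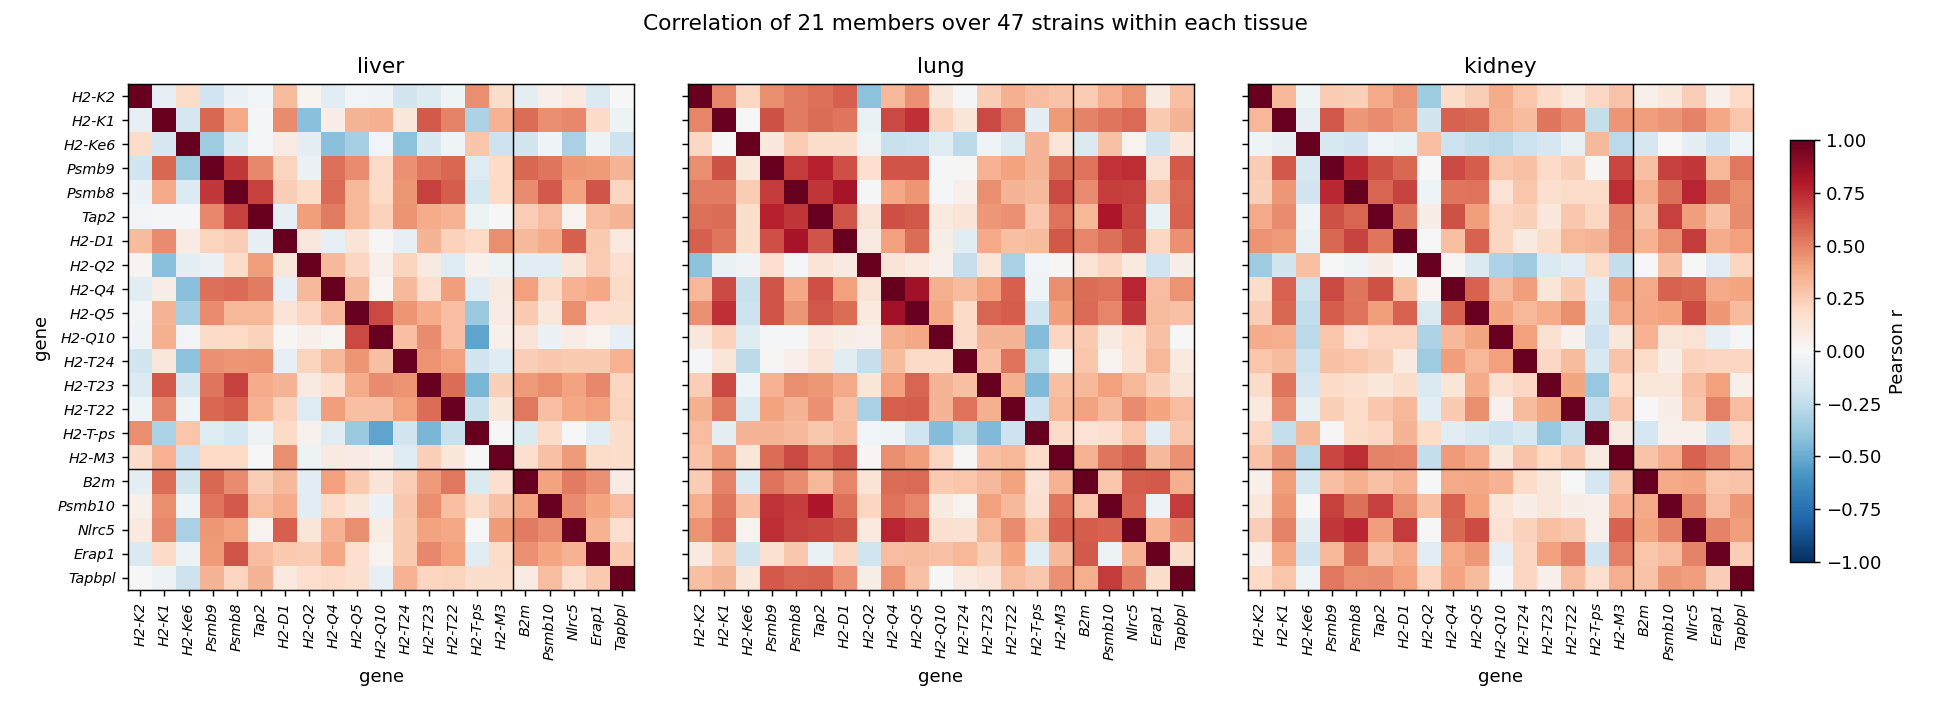
Pearson r between each pair of 21 members over 47 strains in liver, lung and kidney, as colour from −1 (blue) to 1 (red); the first 16 genes are of the H2 region and the last 5, after the black line, lie on other chromosomes. The block of Psmb9, Psmb8 and Tap2 is red in each tissue and H2-T-ps with H2-T23 is blue in each.

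Nlrc5 drives class I transcription, so the members were compared with it across strains, with p adjusted over 32160 tests. In lung 16 of 25 members were called with positive r, where 1.29% of all genes were, in kidney 9 of 20, where 1.74% were, and in liver 5 of 21, where 1.31% were. H2-D1, H2-K1, H2-Q5 and Psmb10 were called in each tissue. H2-D1 gave r of 0.60 in liver, 0.64 in lung and 0.70 in kidney (n = 47 strains, rho 0.62, 0.59 and 0.68, permutation q at most 0.011), and 0.57, 0.56 and 0.71 leaving out the 2 strains most extreme in Nlrc5. Psmb8 gave 0.40, 0.68 and 0.76 (rho 0.36, 0.61 and 0.74), and Psmb9 gave 0.44, 0.74 and 0.70 (rho 0.38, 0.71 and 0.66), both called in lung and kidney at permutation q = 0.0040 and not in liver. H2-Q4 reached 0.76 in lung (rho 0.78, permutation q = 0.0040), and Tap1 0.71 and Tap2 0.67, whereas Tap2 gave 0.03 in liver. Whether r differed between tissues was not tested.

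These counts were lower without single mice and after regression on leukocyte markers. Without CC016 they were 11 in lung, 7 in kidney and 1 in liver, and without CC015, CC016, CC029, CC033 and CC040 they were 7, 6 and 1. With the summed leukocyte list regressed out they were 7 in lung, 2 in kidney and 0 in liver, where 10 members were at an unadjusted permutation p under 0.05, and the share of all genes called was then 0.194%, 0.111% and 0.0444%. Without CC030, CC032 and CC042 the counts were 13, 8 and 4. The share of all genes called when strains were left out is not given here. Ptprc itself, the pan-leukocyte marker, was called with 4 of 26 members in lung, where 3.89% of all genes were: B2m at r = 0.52, Nlrc5 at 0.46, Psmb8 at 0.44 and Psmb9 at 0.43 (n = 47 strains, rho 0.50, 0.43, 0.44 and 0.40, permutation q at most 0.060). Of the other pathway genes, Psme1 was called with Nlrc5 in lung at 0.53 (permutation q = 0.021) and Ifngr2, a chain of the interferon gamma receptor, in liver at 0.48 (permutation q = 0.053).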

How the data were processed

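RNA-seq libraries were made from total RNA with ribosomal depletion. Per the labels and methods, the authors aligned single-end reads of 50 bases with STAR 2.5.3a to pseudogenomes of each strain built on mm9, quantified genes with RSEM and counted unique alignments. The deposited files hold estimated counts and TPM per gene and library; FPKM was not used. Expected counts were rounded (25 values were not whole), and H2-K1, H2-D1 and the other members were extracted by symbol. Genes above 1 CPM in at least 30% of libraries (12127) were fitted with limma 3.58.1 on TMM factors from edgeR 4.0.16, with tissue and strain as terms and DESeq2 1.42.0 as an alternative. Correlations used TMM-normalised TPM above 1 in over 50% of libraries of each tissue, Blom scores and 100000 permutations. Adjusted p-values are Benjamini-Hochberg and two-sided, over all genes tested, except over the 766 pairs for pairs of members and over the 3 tissue pairs for the ratio. The labels name 1 mouse per strain, which pairs the tissues: deviations of the same strain correlated at medians of 0.17, 0.17 and 0.21 in the liver-lung, liver-kidney and lung-kidney pairs, over 0.1 in 39, 45 and 43 of 47 strains. Sequencing batch was not among the labels and was not fitted. Depth, from 1738046 to 42158454 counts, sets the precision: 3 counts was taken as the floor, for counting error only. The members and lists were chosen with earlier results of these data known. Named in full were H2-K1, H2-D1, B2m, Nlrc5, Tap1, Tapbp, Psmb8 and Psmb9, the 3 largest called changes per direction and tissue pair, the 5 largest and 3 smallest mean r, and members at or below 3 counts throughout 5 strains and above 30 in 5; other values were chosen after they were seen. Scripts were tested on simulated data.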

Additional observations from a re-analysis of the deposited data

How the results depend on the processing

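Scaling mattered most between liver and lung, where it shifted the median of all genes. With total-count scaling (chosen after seeing the data), log2(TPM + 1) and log2(TPM + 0.1) in that order, the log2 fold change of liver against lung became −0.075, −0.19 and −0.19 for H2-K1, −0.34, −0.37 and −0.53 for H2-K2, −1.21, −1.23 and −1.31 for H2-Q5, −1.16, −1.24 and −1.26 for Psmb10, and −1.10, −1.19 and −1.21 for Psmb8. It became −1.17 (total count) and −1.25 (TPM + 0.1) for H2-T-ps, −0.13 and −0.14 (TPM + 1 and + 0.1) for H2-T23, −1.11 and −1.15 (the same) for Psmb9 and −1.01 (TPM + 0.1) for Nlrc5. The split of calls, liver to lung, was 8 to 2 with TMM and 2 to 13, 1 to 11 and 2 to 15 with these. With no filter on low counts 42 members were tested and 20 called. Of the 25 tested otherwise, 17 were called with log2(TPM + 0.1) and 21 at q of at most 0.1 alone, where 11343 of 12127 genes were. Between liver and kidney 11, 10 and 11 members were called under the same 3 scalings, all higher in liver. Fits with no replicate block, ignoring the pairing by mouse, called 10, 20 and 18 members for liver with lung, liver with kidney and lung with kidney, the counts of the blocked fit, and no other call count moved by over 1.5 times.

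Shared patterns of liver and lung were called for 4 members with TPM not scaled by TMM (2.23% of all genes), and those of lung and kidney for 11 after regression on the leukocyte list. Relative to B2m, Psmb9 gave r of −0.030 between liver and lung. For Nlrc5 in liver 2 members were called by Spearman's rho, 16 without TMM (57.2% of all genes), 1 after regression on Ptprc, 0 after regression on the leukocyte list, 1 without CC016 and 1 without the 5 strains named above. In lung 7 were called after regression on the leukocyte list and 7 without those strains, and in kidney 14 without TMM and 2 after that regression. The share of all genes is not given for the 14, so that count is not a result about the members. Ptprc in lung called 19 without TMM (70.0% of all genes). The causes were not tested. Single-gene tissue differences kept their side of the threshold in 966 of 1125 alternatives, and shared patterns in 758 of 897. These counts do not describe direction for members that were not called. Each turn of sign listed between liver and lung had a call in the main fit or in the alternative. Turns between uncalled values are not listed. Nlrc5, uncalled at 0.36 for liver minus lung in the main fit, had higher deposited TPM in lung in 43 mice and in liver in 4. Alternatives leaving out CC016, alone or with the other 4 strains, leaving out CC030, CC032 and CC042, and regressing on the leukocyte list were chosen after seeing the data. Depth limits members with few counts, and 1 mouse per strain gives no replicate of a strain.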
